A study of Apis mellifera with 18 samples.

Results

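The comparison described here is between inseminated honeybee queens of RNA-seq Experiment 2 and inseminated queens of RNA-seq Experiment 1. Its members were chosen by treatment label: the 6 brain libraries of Experiment 2 whose queens had received semen (INS, replicates A, B and C) or seminal fluid (SF, replicates A, B and C), and the 6 libraries of Experiment 1 with the same treatments, which made 12 of the 18 libraries of the series. Queens were *Apis mellifera ligustica* reared from larvae of a single colony. They were exposed to CO2 for the first time 4 days after hatching, and they were inseminated 1 day later under CO2 with 6 µl of fluid. Brains, with the optic lobes, were taken 24 hr after insemination, and 3 brains were pooled for each library. Collection of the fluids followed the same procedure in either experiment, with semen used fresh and seminal fluid freed of sperm by centrifugation and kept as frozen aliquots. The dates of the experiments were not given in the sources used here. The controls were queens given 6 µl of Hayes saline (HS) in Experiment 2 and mock-inseminated queens, which received no fluid, in Experiment 1, with 3 libraries each. The treatments were the same in both experiments, so the comparison shows how far the brain transcriptome of queens given the same fluid differed from one experiment to the other, and anything else that changed between the experiments cannot be told apart from it.

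The queen brain receives light input through the photoreceptor cells of the compound eyes and ocelli. In *Drosophila*, light absorbed by rhodopsin activates a Gq protein and phospholipase C, and the TRP and TRPL channels then open. The cascade sits in microvilli, which are membrane folds held in place by an actin core, by class III myosin and by adhesion proteins. The study centred on genes of this pathway and on genes that responded to insemination in both experiments. These 2 lists gave names to 57 of the 11985 genes tested, and the other 11928 identifiers could not be paired with a name here.

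The 12 libraries held 32041040 to 44633262 counts assigned to genes in Experiment 2 and 34488100 to 51745752 in Experiment 1. Libraries of the same experiment were closer to each other (mean Bray-Curtis dissimilarity of log2 CPM, counts scaled to a common library size, 0.0275, range 0.0166 to 0.0370 over 30 pairs) than libraries of the other experiment (mean 0.0573, range 0.0396 to 0.0762 over 36 pairs), and the ranges did not overlap. Counts were spread over more genes in Experiment 2. The 100 genes with the most counts took 25.9% to 33.1% of a library in Experiment 2, against 38.7% to 45.8% in Experiment 1, and 13147 to 13262 genes had at least 1 count in Experiment 2, against 12631 to 13081 in Experiment 1. Reads in no annotated gene made up 18.1% to 20.7% of a library in Experiment 2 and 16.6% to 17.9% in Experiment 1, and reads aligned to several places made up 5.69% to 6.39% in Experiment 2 and 7.11% to 8.21% in Experiment 1. The part of these library differences in the results below was not tested.

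A single library stood apart. In Exp2 SF replicate C, GB49544, the gene with the most counts over the 12 libraries, took 8.90% of the counts, against 0.84% to 1.40% in the other 5 libraries of Experiment 2 and 4.11% to 7.14% in the libraries of Experiment 1. Among 8 genes for which a library lay far from the rest of its experiment, 5 involved this library, including the photoreceptor genes *GNB1* and *myosin-IIIb*. Genes whose call was lost, or whose fold change moved most, without it are given with and without it.

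**Figure D1:**
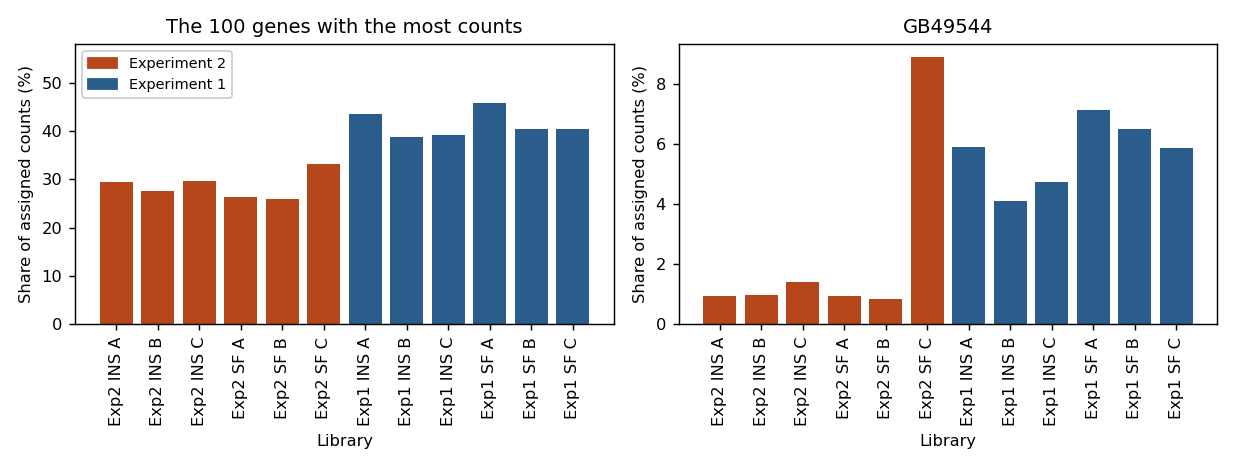
Share of the counts assigned to genes, in percent, that was taken by the 100 genes with the most counts (left) and by GB49544 (right), with 1 bar per library. Every Experiment 2 library lies below every Experiment 1 library on the left (25.9% to 33.1% against 38.7% to 45.8%), whereas on the right Exp2 SF replicate C, at 8.90%, stands above all the others.

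Most genes differed between the experiments, and most differences were small. Of 11985 genes tested with edgeR's quasi-likelihood test, 8294 (69.2%) passed an adjusted p of 0.1, the false discovery rate used in the study, with 4077 (34.0%) higher and 4217 (35.2%) lower in Experiment 2. The median absolute log2 fold change of these genes was 0.56, and 43.0% of them changed by less than 0.5 on the log2 scale. Large changes were mostly decreases, since 273 genes (2.28%) rose and 1298 (10.8%) fell by more than 1 on the log2 scale, together 13.1% of the genes tested. The 6 libraries of Experiment 2 lay entirely on 1 side of the 6 libraries of Experiment 1 for 38.0% of genes, above them for 2221 (18.5%) and below them for 2335 (19.5%). These shares form the background of every count below.

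The direction of a gene depended on its count level. Among the 121 genes above 1024 CPM, 102 fell and 4 rose in Experiment 2, with a median log2 fold change of -1.01. Among the 522 genes from 256 to 1024 CPM the median was -0.46, with 344 lower and 80 higher. Genes from 16 to 64 CPM were more often higher than lower (1645 against 1135 of 3692, median 0.08). Of the 100 genes with the most counts, 84 fell, 3 rose and 13 did not pass the test.

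Scaling decides where 0 lies on this axis. Scaling factors were trimmed means of M values (TMM), a method that centres the bulk of the genes (median log2 fold change -0.01), and they were 1.13 to 1.35 in Experiment 2 against 0.698 to 0.889 in Experiment 1. Scaled by total counts instead, a setting added after the data had been seen, the median gene was 0.58 higher in Experiment 2, and 84.8% rather than 49.2% of the called genes were higher (8094 of 9547). Genes above 1024 CPM then had a median of -0.41. All directions given here are relative to the TMM centre.

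**Figure D2:**
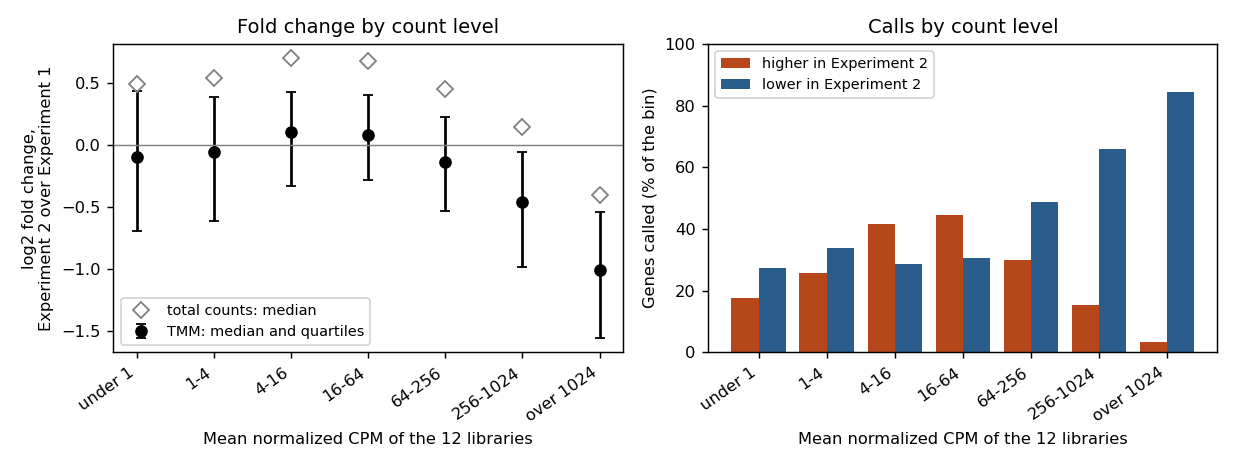
Left: log2 fold change of Experiment 2 over Experiment 1 by mean normalized CPM of the gene over the 12 libraries, with circles for the TMM median, bars for the quartiles, and open diamonds for the median after scaling by total counts. Right: percent of the genes in each bin called higher or lower in Experiment 2 under TMM. The TMM median reaches -1.01 above 1024 CPM, where 84.3% of genes were lower.

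Most named genes of phototransduction and photoreceptor structure were called lower in Experiment 2 by TMM. Of 22 genes mapped by the study to the phototransduction pathway, 20 passed the test (90.9%, against 69.2% of all genes tested), 6 higher and 14 lower. The study's heatmaps of this pathway kept only genes that differed between its treatments above noise in these same samples. The share called among the 22 may thus be partly set in advance and is no independent evidence. The median log2 fold change of the 22 was -0.32 against -0.01 over all genes. Of the 22, 1 lay entirely above and 6 lay entirely below the libraries of Experiment 1, against 18.5% and 19.5% of all genes. By total counts the direction of the majority turned, with 12 called higher and 4 lower. Within the named genes, 6 grouped here as structural (*Actin (a)*, *Actin (b)*, *Arp1*, *chaoptin*, *ninaC* and *myosin-IIIb*) were all called lower, with a median of -1.10. The *ninaC* call held in only 6 of 12 fits that left out a library. By total counts the 6 genes had a median of -0.51, with *Arp1* unchanged (-0.016, adjusted p = 0.862), and only *Actin (a)*, *Actin (b)* and *chaoptin* were called. These genes did not move as 1 set. In Exp2 SF replicate C, *ninaC* and *myosin-IIIb* stood above every Experiment 1 library, whereas *Actin (a)*, *Actin (b)*, *Arp1* and *chaoptin* stood below them all.

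*Actin (a)* (GB41311), which encodes a filament protein, measured 10.6 to 23.9 normalized CPM (median 17.4) in Experiment 2 and 40.3 to 102 CPM (median 55.9) in Experiment 1. Its groups did not overlap, and the log2 fold change was -1.84 (SE 0.23, adjusted p = 3.01e-05). *Actin (b)* (GB41310) measured 23.2 to 50.5 CPM (median 36.9) in Experiment 2 and 70.9 to 178 CPM (median 92.2) in Experiment 1, and the log2 fold change was -1.58 (SE 0.25, adjusted p = 0.000164). Both actin genes were thus lower in every library of Experiment 2, although reads of such similar genes can be split between copies, so the share of each is uncertain. *Arp1* (GB44311), an actin-related gene, was also separated, at 1342 to 1690 CPM (median 1419) in Experiment 2 and 1985 to 2479 CPM (median 2350) in Experiment 1, and the log2 fold change was -0.62 (SE 0.10, adjusted p = 0.000193). This was a smaller fall than the median of -1.01 over all genes above 1024 CPM.

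*Chaoptin* (GB41723), which in *Drosophila* holds microvillar membranes together, measured 3.06 to 5.88 CPM (median 4.22) in Experiment 2 and 7.50 to 12.7 CPM (median 9.95) in Experiment 1. The groups did not overlap, and the log2 fold change was -1.18 (SE 0.15, adjusted p = 3.87e-05). For both class III myosin genes 1 library of Experiment 2 stood apart from the other 5. *Myosin-IIIb* (GB43718) measured 45.4 to 62.2 CPM in 5 libraries of Experiment 2 and 203 CPM in Exp2 SF replicate C, against 131 to 173 CPM in Experiment 1. Its log2 fold change was -1.02 (SE 0.31, adjusted p = 0.0119) with this library and -1.47 (adjusted p = 3.62e-06) without it. *NinaC* (GB45512), whose product in *Drosophila* ties the signalling complex to the actin core, followed the same pattern, at 35.5 CPM in Exp2 SF replicate C and 8.04 to 15.2 CPM in the other Experiment 2 libraries, against 18.1 to 30.9 CPM in Experiment 1. The log2 fold change of *ninaC* was -0.70 (SE 0.31, adjusted p = 0.0621) with the library and -1.07 (adjusted p = 0.000243) without it. The *ninaC* call was lost without any 1 of the 3 Exp2 INS libraries, Exp1 SF replicate A, Exp1 INS replicate A or Exp1 INS replicate B (-0.66 to -0.59, adjusted p = 0.104 to 0.126). In bulk samples, fewer cells of a type and less RNA per cell cannot be told apart.

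**Figure D3:**
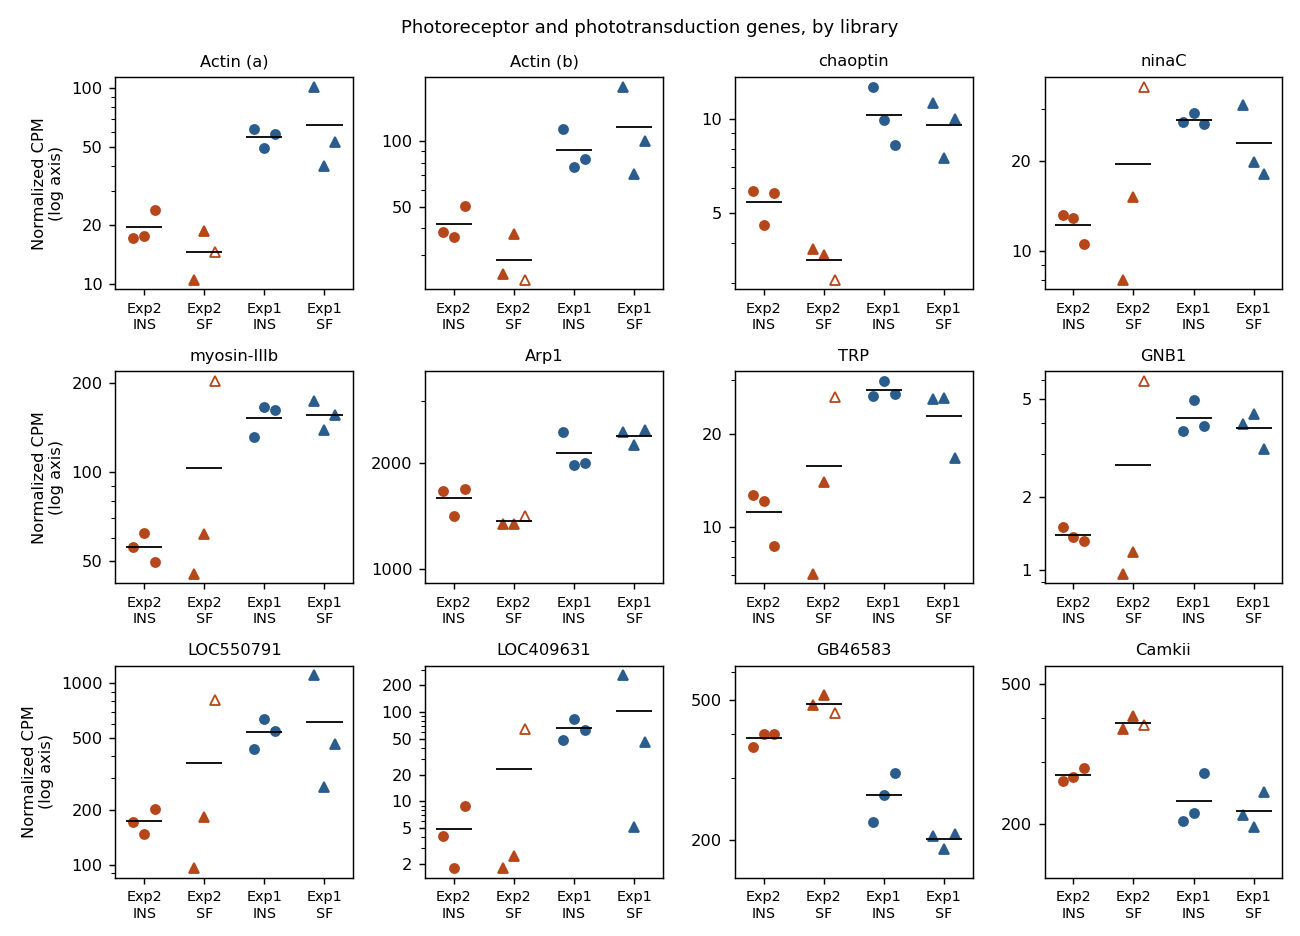
Normalized CPM on log axes of 12 photoreceptor and phototransduction genes in the 12 libraries, with circles for semen (INS), triangles for seminal fluid (SF) and a line at the mean of 3 libraries. The open triangle is Exp2 SF replicate C, which lies with Experiment 1 for *ninaC*, *myosin-IIIb*, *TRP*, *GNB1*, *LOC550791* and *LOC409631* but with Experiment 2 for the actins, *chaoptin*, *Arp1*, GB46583 and *Camkii*.

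The signalling genes of the cascade went both ways. Among 9 of them, 3 were called higher, 5 were called lower and 1 did not pass (median -0.16), whereas by total counts 6 were called higher and 1 lower. *Pkc* (GB43222), the protein kinase C gene, had the largest decrease of the 2 whose groups did not overlap. It measured 416 to 463 CPM (median 447) in Experiment 2 and 732 to 983 CPM (median 844) in Experiment 1, and the log2 fold change was -0.94 (SE 0.09, adjusted p = 7.18e-06) by TMM and -0.34 by total counts. *NorpA* (GB42579), which encodes the phospholipase C of the cascade, was also separated but changed less. It stood at 324 to 347 CPM (median 327) in Experiment 2 and 372 to 431 CPM (median 393) in Experiment 1, and the log2 fold change was -0.26 (SE 0.06, adjusted p = 0.00166) but 0.33 by total counts. All genes from 256 to 1024 CPM, the count level of *Pkc* and *norpA*, had a median of -0.46 by TMM.

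*TRP* (GB41297), the light-activated cation channel, overlapped through Exp2 SF replicate C. It measured 7.05 to 14.0 CPM in 5 libraries of Experiment 2 and 26.4 CPM in Exp2 SF replicate C, against 16.8 CPM in Exp1 SF replicate C and 26.0 to 29.8 CPM in the other 5 libraries of Experiment 1. The log2 fold change was -0.93 (SE 0.27, adjusted p = 0.00928), and -1.21 (adjusted p = 0.000166) without Exp2 SF replicate C. *GNB1* (GB41758), a G protein beta subunit gene, measured 0.968 to 1.497 CPM in 5 libraries of Experiment 2 and 5.93 CPM in Exp2 SF replicate C, against 3.12 to 4.96 CPM in Experiment 1. Its log2 fold change was -1.03 (SE 0.40, adjusted p = 0.0381) with the library and -1.67 (adjusted p = 1.20e-05) without it. *TRPgamma* (GB55618), a channel of the same family, was called at -0.16 (SE 0.08, adjusted p = 0.0797), and this call was lost under most other settings and in 8 of 12 fits that left out a library (-0.12, adjusted p = 0.214, without Exp2 SF replicate C).

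*InaD* (GB42762), the scaffold of the complex in *Drosophila*, was higher in Experiment 2, at 125 to 174 CPM (median 147) against 88.6 to 133 CPM (median 116) in Experiment 1 (log2 fold change 0.39, SE 0.11, adjusted p = 0.00810). *Camkii* (GB49535), a calcium-dependent kinase gene, rose as well, by 0.53 (SE 0.12, adjusted p = 0.00187). The rise of *Camkii* was clear after seminal fluid, where Experiment 2 measured 372 to 404 CPM and Experiment 1 measured 195 to 246 CPM, while after semen the values were 264 to 288 CPM and 203 to 279 CPM and overlapped. The difference between these treatments did not pass its own test (adjusted p = 0.196). *DAGLB* (GB46305), a diacylglycerol lipase gene, was called at 0.49 (SE 0.22, adjusted p = 0.0707) with overlapping groups, a call lost in 6 of 12 fits that left out a library (0.37 to 0.48), and *PLC* (GB44174) did not pass (0.20, SE 0.11, adjusted p = 0.130).

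Among pathway genes known only by an identifier, GB46583 rose most, at 368 to 518 CPM (median 431) in Experiment 2 and 190 to 311 CPM (median 217) in Experiment 1, with no overlap (log2 fold change 0.91, SE 0.13, adjusted p = 9.37e-05). *LOC409631* (GB47942) showed the widest spread of all pathway genes. It measured 1.80 to 8.90 CPM in 5 libraries of Experiment 2 and 65.3 CPM in Exp2 SF replicate C, against 5.16 CPM in Exp1 SF replicate B, 259 CPM in Exp1 SF replicate A and 46.8 to 84.6 CPM in the other 4 libraries of Experiment 1. The log2 fold change was -2.92 (SE 0.99, adjusted p = 0.0209), and -4.45 (adjusted p = 0.000819) without Exp2 SF replicate C, whereas without Exp1 SF replicate A the call was lost (-2.27, adjusted p = 0.116). *LOC550791* (GB51068) rested on the same libraries, with -1.19 (SE 0.47, adjusted p = 0.0424) over all 12 libraries, -1.83 (adjusted p = 0.000429) without Exp2 SF replicate C and -0.94 (adjusted p = 0.132) without Exp1 SF replicate A. *LOC413197* (GB51749) was lower without overlap, at 184 to 224 CPM in Experiment 2 and 235 to 293 CPM in Experiment 1 (-0.37, SE 0.08, adjusted p = 0.00116), although it was 0.24 higher by total counts. *LOC413224* (-0.20), *LOC551859* (0.23) and *LOC550818* (0.13) changed little, and the call of *LOC550818* (adjusted p = 0.0973) was lost in 5 of 12 fits that left out a library, among them that without Exp2 SF replicate C (0.11, adjusted p = 0.132).

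The names held 6 photoreceptor markers (*TRP*, *GNB1*, *inaD*, *chaoptin*, *ninaC* and *myosin-IIIb*), and each had counts in all 12 libraries. Their summed level was 210 to 442 CPM (median 228) in inseminated queens of Experiment 2 and 284 to 361 CPM (median 339) in those of Experiment 1, and in controls it was 208 to 273 CPM (median 268) in Experiment 2 and 248 to 312 CPM (median 285) in Experiment 1. Most of the sum came from *inaD* and *myosin-IIIb*, which moved in opposite directions. In the scaling of the 12 libraries, *inaD* had a mean of 147 CPM in Experiment 2 and 112 CPM in Experiment 1. *Myosin-IIIb* had means of 79.6 and 154 CPM. Of the markers, 1 (*inaD*) was called higher and 5 were called lower in Experiment 2, but by total counts 1 was called higher and 1 lower. The highest sum, 442 CPM, belonged to Exp2 SF replicate C, and the other 5 libraries of Experiment 2 stood at 210 to 281 CPM. How far the amount of photoreceptor tissue in the pools took part in these values was not tested, and marker lists of other cell types were not analysed here.

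A second list held genes that responded to insemination in the same way in both experiments. Its genes differed in level between experiments about as often as all genes did. Of the 37, 28 passed the test (75.7%, against 69.2% of all genes tested), 11 higher and 17 lower, with a median of -0.22. Of the 37, 5 lay entirely above and 9 entirely below the libraries of Experiment 1, against 18.5% and 19.5% of all genes. By total counts, 27 were called higher and 3 lower. The study chose them on these same samples, so their direction is no independent evidence.

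Genes of vesicle and membrane traffic held both signs. *Otoferlin-like* (GB53517), named after a calcium sensor of vesicle release, measured 218 to 315 CPM (median 249) in Experiment 2 and 115 to 151 CPM (median 132) in Experiment 1. It rose by 0.92 (SE 0.10, adjusted p = 1.67e-05), the largest increase among the 57 named genes, with no overlap. *Tumor D53 homolog* (GB52520) fell without overlap, at 202 to 258 CPM in Experiment 2 and 316 to 377 CPM in Experiment 1 (-0.60, SE 0.07, adjusted p = 1.89e-05), but it stood at 0.00 by total counts. *Golgin A6-like 22* (GB50973), named after a Golgi protein, was called at -0.24 (SE 0.09, adjusted p = 0.0341).

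Adhesion and protease genes included the smallest adjusted p-values among the named genes. *Cell adhesion molecule 3-like* (GB53593) measured 22.8 to 26.0 CPM (median 23.7) in Experiment 2 and 36.2 to 47.7 CPM (median 42.3) in Experiment 1, and the log2 fold change was -0.80 (SE 0.07, adjusted p = 6.95e-06). The Experiment 2 libraries were the tighter group, with an SD of 1.05 CPM against 4.44 CPM in Experiment 1 (n = 6 each). *ADAM10-like* (GB46342), a membrane metalloprotease gene, fell by 0.92 (SE 0.09, adjusted p = 7.81e-06), at 67.5 to 93.2 CPM in Experiment 2 and 127 to 177 CPM in Experiment 1. *Glutamyl aminopeptidase-like* (GB42326), a peptidase gene, moved the other way, at 358 to 423 CPM in Experiment 2 and 261 to 298 CPM in Experiment 1 (0.44, SE 0.07, adjusted p = 0.000164).

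Of the synaptic adhesion genes, *neuroligin-4* GB42886 was called higher (0.27, SE 0.09, adjusted p = 0.0154), whereas the other gene model of that name, GB42885, was not (0.15, SE 0.10, adjusted p = 0.196). The difference between these gene models was not tested. *Hemicentin-1-like* (GB44248), a matrix gene by its name, rose by 0.34 (SE 0.13, adjusted p = 0.0378) with overlapping groups.

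Both neuropeptide precursors among the names were slightly higher in Experiment 2. *Prohormone-3* (GB50651) measured 579 to 727 CPM (median 666) in Experiment 2 and 490 to 594 CPM (median 537) in Experiment 1 (0.31, SE 0.08, adjusted p = 0.00421), and *prohormone-2-like* (GB44988) changed by 0.19 (SE 0.07, adjusted p = 0.0432). The groups overlapped for each gene. Of 5 kinase, phosphatase and small GTPase genes, 1 was called higher and 3 were called lower, but by total counts all 5 were called higher. *Src64B* (GB46371), a non-receptor tyrosine kinase gene, measured 61.4 to 83.2 CPM in Experiment 2 and 87.1 to 113 CPM in Experiment 1, without overlap (-0.37, SE 0.09, adjusted p = 0.00333), but it was 0.24 higher by total counts. Both gene models named after the *REM 1* GTPase were called at about the same size. The log2 fold change was -0.22 (SE 0.10, adjusted p = 0.0593) for GB44017 and -0.22 (SE 0.07, adjusted p = 0.0176) for GB44018. Each turned to 0.38 by total counts. Whether the 2 models are separate genes was not tested. The call of GB44017 was lost in 5 of 12 fits that left out a library (-0.20 to -0.16). The transcription factor gene *D-ETS-4* (GB50829) fell by 0.55 (SE 0.13, adjusted p = 0.00219), at 2.91 to 5.52 CPM in Experiment 2 and 5.31 to 6.43 CPM in Experiment 1.

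Several other genes of this list were separated without overlap. *J domain-containing protein* (GB41376), of a co-chaperone family, fell by 0.76 (SE 0.09, adjusted p = 1.62e-05), at 235 to 268 CPM in Experiment 2 and 379 to 518 CPM in Experiment 1. *Bardet-Biedl syndrome 2 homolog* (GB54522), a gene of the ciliary machinery, rose by 0.58 (SE 0.09, adjusted p = 0.000114), at 46.4 to 65.0 CPM in Experiment 2 and 34.1 to 41.9 CPM in Experiment 1. *LOC727647* (GB40426) rose by 0.62 (SE 0.11, adjusted p = 0.000354), and *N-terminal glutamine amidohydrolase* (GB48241), an enzyme of protein turnover, rose by 0.38 (SE 0.09, adjusted p = 0.00252). *THEM6* (GB55392) fell by 0.42 (SE 0.07, adjusted p = 0.000405), yet it was 0.18 higher by total counts. *Odorant receptor 85f-like* (GB52377) fell by 0.71 (SE 0.17, adjusted p = 0.00305) with overlapping groups. *RPB5 interactor 1-like* (-0.26), *U8-agatoxin-like* (-0.38), *LOC102654968* (-0.36), *LOC100577121* (0.26) and *Rap/Ran-GAP domain 3 gene* (0.12) were called with smaller changes. The call of *LOC102654968* (adjusted p = 0.0658) was lost in 6 of 12 fits that left out a library, among them that without Exp2 SF replicate C (-0.24, adjusted p = 0.163), and the call of *Rap/Ran-GAP domain 3 gene* (adjusted p = 0.0705) was lost in 5 of 12. The 9 genes that did not pass lay between -0.23 (*Tret1*, GB48936, a trehalose transporter gene, adjusted p = 0.214) and 0.15.

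**Figure D4:**
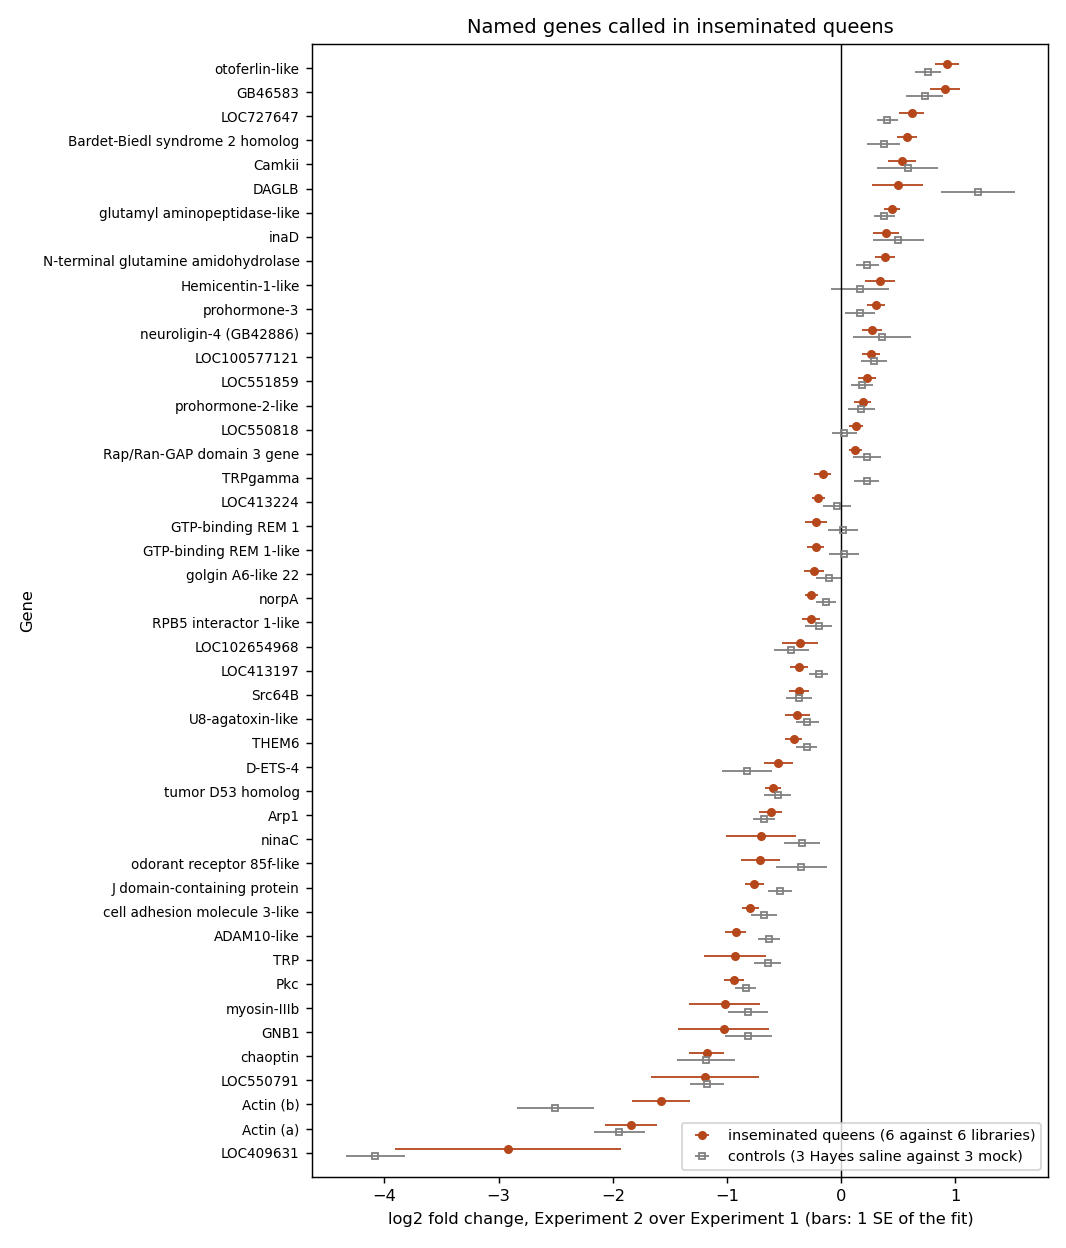
Log2 fold change of Experiment 2 over Experiment 1, scaled by TMM, for the 46 named genes called in inseminated queens, with filled circles for inseminated queens and open squares for controls (Hayes saline over mock insemination). Bars are 1 SE of the fit. The sign was the same in both comparisons for 43 of the 46 genes, and 14 of the 29 lower genes turned higher by total counts.

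Wide differences were also found in genes without a name. Among called genes with separated groups and a mean of at least 1 CPM, GB54962 had the largest decrease without a name, and GB45748 and GB52667 had the largest increases. GB54962 measured 0.184 to 0.396 CPM (median 0.347) in inseminated queens of Experiment 2 and 12.1 to 26.1 CPM (median 17.3) in those of Experiment 1, and its log2 fold change was -5.77 (SE 0.25, adjusted p = 1.07e-07). GB45748 was at 4.59 to 11.0 CPM in Experiment 2 and 0.144 to 0.665 CPM in Experiment 1 (3.91, SE 0.31, adjusted p = 3.80e-06), and GB52667 was at 6.21 to 10.6 CPM in Experiment 2 and 0.646 to 2.26 CPM in Experiment 1 (2.69, SE 0.29, adjusted p = 1.14e-05). Control queens were not uniform for 2 of these genes. GB45748 ranged from 0.337 to 12.3 CPM over the 3 Hayes saline libraries of Experiment 2, and GB54962 ranged from 0.290 to 14.9 CPM over the 3 mock libraries of Experiment 1. GB49544 measured 6216 to 12123 CPM in 5 libraries of Experiment 2 and 79012 CPM in Exp2 SF replicate C, against 46300 to 102310 CPM in Experiment 1. Its log2 fold change was -2.07 (SE 0.58, adjusted p = 0.00748), and -3.09 (adjusted p = 9.94e-06) without Exp2 SF replicate C.

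The difference between experiments was seen after either fluid. In the fit of all 12 libraries, Experiment 2 differed from Experiment 1 in 7684 genes (64.1%, 31.7% higher and 32.4% lower) after seminal fluid and in 5862 genes (48.9%, 23.1% higher and 25.9% lower) after semen. Separate fits of the 6 seminal fluid libraries and the 6 semen libraries, which share no sample, called 7315 of 11761 genes and 5621 of 11777 genes. Of the calls, 4771 were in both, which is 65.2% of the seminal fluid calls and 84.9% of the semen calls, and 4761 of these had the same direction (2276 higher and 2485 lower). Across the 11667 genes tested in both fits the log2 fold changes had a Pearson r of 0.836, as a description over genes, which are not independent replicates. Over all 11667 genes, 85.4% had the same sign in the separate fits. All 46 called named genes had the same sign after both fluids, but they were called on these same 12 libraries, so their agreement was largely set in advance.

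Changes were wider after seminal fluid. Over all 11667 genes the median absolute log2 fold change was 0.49 in the seminal fluid fit and 0.34 in the semen fit. Of these genes, 8473 (72.6%) changed more after seminal fluid. Among the 4761 genes called in both fits with the same direction the medians were 0.82 and 0.55, and 3994 genes (83.9%) changed more after seminal fluid. Gene by gene, the difference between seminal fluid and semen passed the test for 1 gene (0.00834%), while 1712 genes had an unadjusted p under 0.05. For the same contrast 493 genes were called by DESeq2 and 0 by limma-voom, and none were left with the replicate block, all 18 libraries in 1 fit or total counts. The edgeR count moved whichever library was left out, to 1271 without Exp1 INS replicate A, to 3, 4 and 5 without Exp2 SF replicate C, Exp2 SF replicate A and Exp1 INS replicate C, and to 0 without each of the other 8. The gene was GB51686, chosen after its values were seen. It measured 17.5 to 23.5 CPM after seminal fluid in Experiment 2 and 4.07 to 5.00 CPM in Experiment 1, but 9.22 to 11.9 CPM after semen in Experiment 2 and 7.27 to 9.74 CPM in Experiment 1. The log2 fold change was 1.78 larger after seminal fluid (SE 0.23, adjusted p = 0.0613), but this call was kept only without Exp2 SF replicate A, Exp2 SF replicate C, Exp1 INS replicate A or Exp1 INS replicate C and was lost without each of the other 8 libraries (adjusted p = 0.106 to 0.336).

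**Figure D5:**
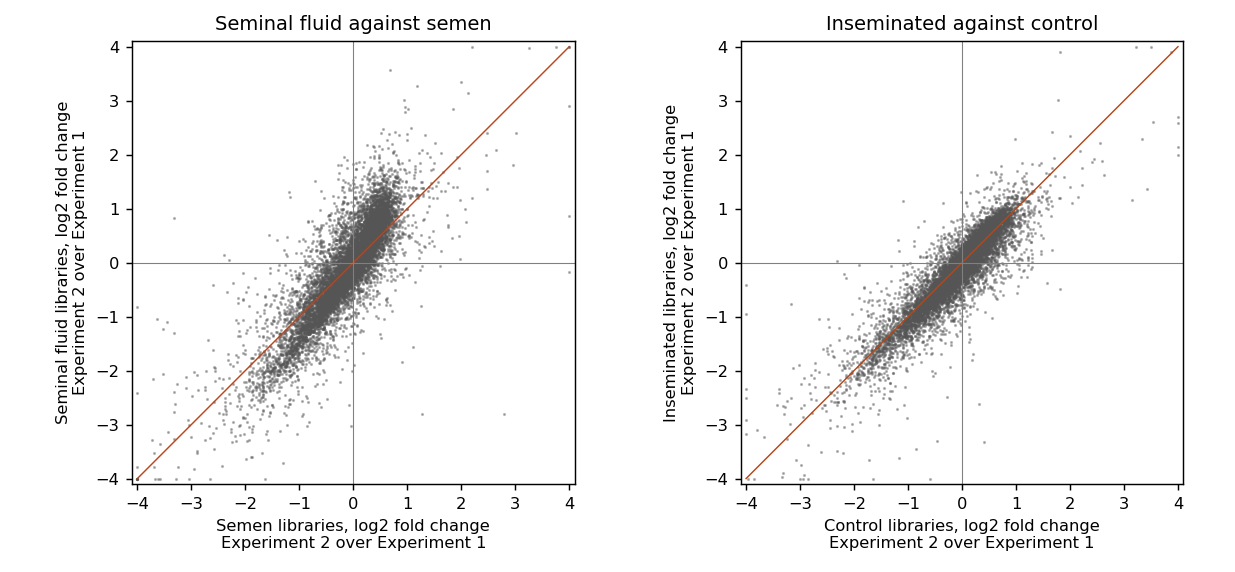
Log2 fold change of Experiment 2 over Experiment 1, 1 point per gene, for the seminal fluid libraries against the semen libraries (left, separate fits) and for inseminated queens against controls (right), with values beyond 4 drawn at the edge and a diagonal line of equal change. Points on the left lie along a steeper line than the diagonal (median absolute change 0.49 after seminal fluid and 0.34 after semen), and points on the right follow it (Pearson r 0.881 across genes).

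The same genes differed between the controls of the experiments. Hayes saline queens of Experiment 2 differed from mock-inseminated queens of Experiment 1 in 5532 of 11625 genes (47.6%), 2811 higher (24.2%) and 2721 lower (23.4%), and without Exp2 HS replicate B in 3634. These libraries share no sample with the inseminated ones. Of the genes called in either comparison, 5173 were called in both, which is 63.5% of the inseminated calls tested in controls and 93.5% of the control calls, and 5167 of these had the same direction. Of 8142 genes called in inseminated queens and tested in controls, 97.1% had the same sign in controls. Because the fluid also differed between the controls, saline and experiment cannot be told apart there.

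Among the 22 pathway genes, 3 were called higher and 10 lower in controls, and among the 37 consistent genes 5 were called higher and 12 lower. Over all genes tested in controls, 24.2% were called higher and 23.4% lower, together 47.6%. All 27 named genes called in both comparisons had the same sign. *Actin (a)* measured 3.16 to 5.59 CPM in Hayes saline queens of Experiment 2 and 14.9 to 20.2 CPM in mock-inseminated queens of Experiment 1 (-1.94, SE 0.22, adjusted p = 0.00116), close to the -1.84 of inseminated queens although its level was lower in controls of either experiment. *Pkc* measured 422 to 484 CPM in Hayes saline queens and 795 to 826 CPM in mock-inseminated queens (-0.84, adjusted p = 0.00105), and *otoferlin-like* measured 137 to 155 CPM in Hayes saline queens and 74.7 to 96.9 CPM in mock-inseminated queens (0.76, adjusted p = 0.00305). *LOC409631*, which overlapped in inseminated queens, was separated in controls, at 2.68 to 3.66 CPM in Hayes saline queens and 35.4 to 65.9 CPM in mock-inseminated queens (-4.08, adjusted p = 0.000213).

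Tested directly, the experiment effect differed between inseminated and control queens for 1 gene of 11985 (0.00834%), while 559 genes had an unadjusted p under 0.05, and 1 gene each was called by DESeq2 and limma-voom. The gene was GB47185, named after its values were seen. Inseminated queens measured 30.1 to 42.1 CPM in Experiment 2 and 15.7 to 22.5 CPM in Experiment 1, whereas Hayes saline queens of Experiment 2 measured 21.4 to 23.9 CPM and mock-inseminated queens of Experiment 1 measured 19.9 to 25.5 CPM. Its log2 fold change was 0.87 larger in inseminated queens (SE 0.12, adjusted p = 0.0315). No call was left without Exp2 HS replicate B, Exp2 INS replicate A or Exp2 INS replicate B. No named gene passed this test or the test between the fluids.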

How the data were processed

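Brain RNA of *Apis mellifera* queens was sequenced as single-end reads of 120 bp, with poly(A) selection and samples spread over 4 lanes. The authors removed adapters with Trimmomatic and ribosomal reads with SortMeRNA, aligned reads with STAR 2.4.2a to the honeybee assembly (Amel 4.5) and counted them per gene model with HTSeq. The deposited values are these raw counts, not normalized. The strand setting of the counting was not given in the sources used here, so reads of overlapping and antisense genes may not be separated. The files also hold 5 totals of unassigned reads, which were left out (27.9% to 31.2% of a library).

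The 12 inseminated libraries were compared with edgeR 4.0.16 in R 4.3.3 by the quasi-likelihood F test, with TMM scaling and treatment as a block, over the 11985 of 15314 genes that reached 10 counts in 3 or more of the 12 libraries. The effect after each fluid and their difference came from a fit of the 4 group means, the controls from a fit of their 6 libraries, and the difference between inseminated and control queens from a fit of all 18. Tests were two-sided, p-values were adjusted over all genes by Benjamini-Hochberg, and an adjusted p under 0.1 made a call. CPM are TMM-normalized, and values of controls come from a scaling of all 18 libraries. Groups were taken from the sample labels. Replicates are separate pools of brains. Libraries of a group were not near-identical (lowest chi-square per gene 18.4).

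Names came from the study's lists, which gave 57, and no other identifier matched the reference table. Named in the text are called genes with separated groups (up to 15 per direction), up to 4 called members of each list or, where none was called, the member with the smallest p, the genes of both lists that were called, GB49544, gene pairs, and the 5 smallest p-values. *PLC* and the identifiers GB54962, GB45748, GB52667, GB51686 and GB47185 were added after their values were seen. Members and lists were chosen with earlier results of these data known.

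Alternatives were DESeq2 1.42.0, limma-voom (limma 3.58.1), other scalings and filters, an adjusted p under 0.05, all 18 libraries in 1 fit, only the 6 libraries of a treatment, a replicate block, no GB49544 and each library left out. On simulated data for the inseminated comparison (11909 genes, 200 of them changed), edgeR recovered 73% of 1.5-fold and 97% of 3-fold changes. Of its calls there, 9.57% were false, against 21.2% for DESeq2 and 10.2% for limma-voom. Performance with as many changed genes as were called in the data (8294) was not tested.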

Additional observations from a re-analysis of the deposited data

Results flagged for a closer look

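Several named genes had 1 library far from the other 5 of its experiment (Dixon's test). Chance alone gives about 1 in 20 groups, and 8 of 122 groups were found, 5 of them in Exp2 SF replicate C. In that library *GNB1* measured 5.93 CPM against 0.968 to 1.497 CPM in the other Experiment 2 libraries, *myosin-IIIb* 203 CPM against 45.4 to 62.2 CPM, *LOC550791* 812 CPM against 95.7 to 203 CPM, GB49544 79000 CPM against 6216 to 12123 CPM, and *enolase-phosphatase E1-like* 83.6 CPM against 89.2 to 91.9 CPM. *Golgin A6-like 22* measured 72.3 CPM in Exp2 SF replicate B against 50.0 to 56.4 CPM. *TRP* measured 16.8 CPM in Exp1 SF replicate C against 26.0 to 29.8 CPM, and *Src64B* measured 113 CPM in Exp1 SF replicate A against 87.1 to 89.9 CPM.

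The experiment effect of GB51686 differed between seminal fluid and semen by 1.78 on the log2 scale, and that of GB47185 differed between inseminated and control queens by 0.87.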

How the results depend on the processing

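The count of genes called in inseminated queens (8294) lay between 7564 and 9547 under 11 other settings and between 7785 and 8480 when each library was left out. After semen it lay between 4180 and 6104 and after seminal fluid between 6775 and 7535 without each library, and in controls between 3634 (without Exp2 HS replicate B) and 5467. Fewer libraries were fitted in these cases. The single call between seminal fluid and semen became 493 with DESeq2 and 0 with limma-voom, an adjusted p under 0.05, all 18 libraries in 1 fit, the replicate block or total counts, and 0 to 1271 (without Exp1 INS replicate A) without each library. The cause was not tested. Between inseminated and control queens the count was 0 with total counts and 0 to 2 without each library.

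Scaling by total counts, added after seeing the data, shifts all genes by construction. It called 12 pathway genes higher and 4 lower, and 27 consistent genes higher and 3 lower, with 87.1% of calls higher after semen, 84.9% after seminal fluid and 86.7% in controls. The log2 fold change then turned positive for *norpA* (0.33), *GTP-binding REM 1* and *GTP-binding REM 1-like* (0.38 each), *Src64B* (0.24), *Tret1* (0.37), *LOC102654968* (0.25), *RPB5 interactor 1-like* (0.34), *U8-agatoxin-like* (0.23), *D-ETS-4* (0.047), *golgin A6-like 22* (0.37), *LOC413197* (0.24), *LOC413224* (0.40), *tumor D53 homolog* (0.0011), *THEM6* (0.18) and *TRPgamma* (0.44). Without each library, pathway genes called numbered 4 to 6 higher and 10 to 14 lower, and consistent genes 10 to 12 higher and 15 to 18 lower.

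The replicate letters did not pair the samples, since deviations of same-lettered libraries correlated at a mean of 0.0981 (A), 0.0677 (B) and -0.0035 (C). With the letter as a replicate block, 8191 genes were called in inseminated queens, 5735 after semen, 7624 after seminal fluid and 4070 in controls.

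Libraries held at least 32041040 assigned counts, so genes with few counts are the least precise, and p-values measure the spread between pools of brains.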
